A study of Mus musculus with 12 samples.

Results

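The genes described here are 38 coagulation, fibrinolysis and complement genes whose proteins the liver secretes into plasma, measured by RNA-seq in mouse liver. They were chosen by symbol: the rows of the deposited count table whose Ensembl gene ID maps to a fixed list of 38 mouse symbols. The rule uses no measured value, but the list was drawn up with earlier results of these data known. All 38 were found among the 55359 genes of the table, and all 38 passed the filter on low counts that left 15274 genes for testing. The samples are livers of 12 male C57BL/6NTac mice in 3 groups of 4, each mouse a separate library. Lean mice were kept on normal chow and injected with lipid nanoparticles (LNPs) loaded with a control mRNA. In the HFD control group the diet was high in fat (HFD) and the LNPs again held control mRNA. In the NM-FGF19 group the diet was also high in fat, and the LNPs held mRNA for NM-FGF19, a non-mitogenic form of the gut hormone FGF19. The diets ran for 21 weeks before treatment and for 28 weeks in all according to the labels, which describe the mice as 24 weeks old. That age is less than the 28 weeks of feeding, so both cannot hold at collection, and the conflict could not be settled. Every mouse was dosed weekly for 6 weeks with the diet kept up, and the interval from the final dose to collection of the liver was 24 hours. The columns of the HFD control libraries carry the name mOX40L, a name of mouse Tnfsf4, and those of the lean libraries do not. Whether both groups received the same control mRNA, and what it encodes, could therefore not be read from the labels. What all 12 mice share, weekly LNPs with an mRNA, is part of every value below.

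Blood clots through a chain of proteases. Tissue factor with factor VII, and the contact system of factor XII, prekallikrein, high molecular weight kininogen and factor XI, lead to factor X, which with its cofactor factor V turns prothrombin into thrombin, and thrombin turns fibrinogen into fibrin. Antithrombin and heparin cofactor II hold thrombin back, plasmin dissolves fibrin, and alpha2-antiplasmin holds plasmin back. Complement is another plasma cascade, started by the classical, lectin or alternative pathway, which meet at C3 and end in the membrane attack complex of C5b, C6, C7, C8 and C9. Hepatocytes make most of these proteins, several of them, fibrinogen and C3 among them, as acute phase proteins whose synthesis interleukin-6 raises.

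Libraries held 23743415 to 30349156 counts in lean, 32284438 to 33257260 in HFD control and 26809039 to 30014092 in NM-FGF19. Levels are given as CPM, counts scaled to a common library size with totals corrected by TMM (trimmed mean of M values), always in the order of replicates 1 to 4, and ± marks the SD over n = 4 mice. The library of lean replicate 3 stood apart: its TMM factor, 0.779, was the lowest of the 12. HFD control replicate 3 was the lowest of its group in 31 of the 38 genes. Counts are therefore also given without both of these libraries. Hepatocyte markers were abundant in every library: 11 of 12 listed markers had a row, and together they reached 96951 to 128199 CPM in lean, 65018 to 91534 in HFD control and 102102 to 144710.00 in NM-FGF19.

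The first comparison, HFD control against lean, sets the high-fat diet beside chow. If the control mRNAs of these groups differed, diet and mRNA cannot be told apart in it. Of the 38 genes, 12 were lower in HFD control at an edgeR adjusted p below 0.05 and 0 were higher: F7, F10, F11, Kng1, Fga, Fgb, Fgg and Serpinf2 of coagulation, and Cfi, C4bp, C6 and C8a of complement. That is 31.6% of the genes, where 3.29% of all 15274 genes tested were lower and 5.04% were higher. Among the 4297 genes with a mean level at or above that of Cfb, the lowest of the 38, 5.49% were lower and 2.77% higher. In 20 of the 38 genes (52.6%) every HFD control liver lay below every lean liver, against 6.89% of all genes tested and 10.4% of the genes at or above the level of Cfb. In 0 of 38 did every HFD control liver lie above, against 8.4% and 4.68% of those sets. The log2 fold change had a negative sign in 37 of 38, F5 being the exception, against 52.5% of all genes, and its median over the 38 was -0.61 against -0.023 over all genes. An unadjusted p below 0.05 was reached by 30 of the 38. The share of all genes at that threshold was not taken, so this count has nothing to be read against.

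The count of 12 moved with single libraries. It was 7 without both lean 3 and HFD control 3, 7 without lean 2, 7 without HFD control 1 and 23 without HFD control 2, and DESeq2 gave 23. The lower calls over all genes tested moved too, from 502 to 157, 227, 196, 602 and 921 in those settings, in that order. The 11 genes that passed in addition without HFD control 2 were Hrg, Plg, Serpinc1, C1ra, C2, C4b, Mbl1, C3, Hc, C8b and C9. The 7 genes F11, Kng1, Fga, Fgb, Fgg, Cfi and C8a were lower in each of the 22 alternative settings and sets of libraries that were run. With totals alone in place of TMM, the median over all genes moved to 0.29 and the median of the 38 to -0.29, a gap of much the same size, and the calls over all genes moved from 502 lower and 770 higher to 228 lower and 2383 higher. In bulk liver, fewer hepatocytes and less RNA of a gene per hepatocyte cannot be told apart. Summed hepatocyte markers were lower in each HFD control liver than in each lean liver, 2 of the 11 markers (Ambp and Serpina1a) were called lower, and the median log2 fold change of the markers was -0.28. Markers of stellate cells and fibroblasts summed to 181 to 234 CPM in lean, 399 to 1005 in HFD control and 285 to 843 in NM-FGF19, without overlap between lean and HFD control, and 4 of 6 (Lrat, Des, Col1a1 and Col3a1) were called higher in HFD control than in lean. The part of both marker lists in the results on the 38 genes was not tested.

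**Figure D1:**
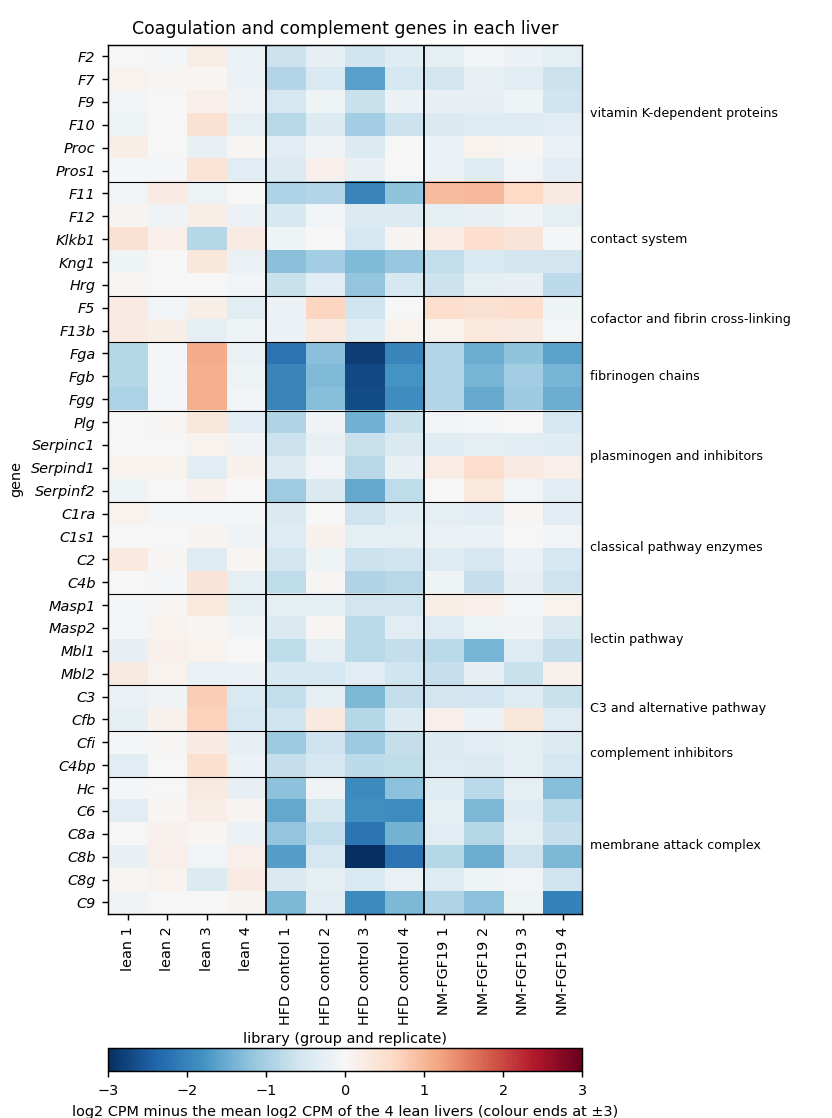
Level of each of the 38 genes (rows, grouped by role) in each of the 12 livers (columns), as log2 CPM minus the mean log2 CPM of the 4 lean livers; blue is lower, red is higher, and colours end at a difference of 3. The fibrinogen rows and most of the membrane attack complex rows are the darkest blue in HFD control, and F11 turns from blue in HFD control to red in NM-FGF19, with weaker turns the same way in rows such as Serpind1.

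Fibrinogen is made of 3 chains, alpha, beta and gamma, encoded by Fga, Fgb and Fgg, which lie next to each other on mouse chromosome 3. All 3 genes fell in HFD control, and the sequences upstream of them are shown because the chains moved together, with that of F11 beside them because it was the gene that passed after NM-FGF19. The 250 bases before each start site are given 5′ to 3′ on the gene's strand from RefSeq (build GRCm38.p6, older than the mm39 build of the counts), with motif matches in capitals.
Fga, chr3:83025903-83026152, plus strand: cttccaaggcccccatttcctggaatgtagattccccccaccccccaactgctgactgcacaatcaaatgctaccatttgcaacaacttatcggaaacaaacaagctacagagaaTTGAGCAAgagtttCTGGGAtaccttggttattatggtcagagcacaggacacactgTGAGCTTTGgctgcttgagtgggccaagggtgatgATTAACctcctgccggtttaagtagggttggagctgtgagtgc
Fgb, chr3:83049864-83050113, minus strand: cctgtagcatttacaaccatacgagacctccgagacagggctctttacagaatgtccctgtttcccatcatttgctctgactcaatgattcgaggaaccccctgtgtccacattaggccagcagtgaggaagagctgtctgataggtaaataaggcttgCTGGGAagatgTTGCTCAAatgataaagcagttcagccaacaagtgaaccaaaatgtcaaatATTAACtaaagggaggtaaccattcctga
Fgg, chr3:83007474-83007723, plus strand: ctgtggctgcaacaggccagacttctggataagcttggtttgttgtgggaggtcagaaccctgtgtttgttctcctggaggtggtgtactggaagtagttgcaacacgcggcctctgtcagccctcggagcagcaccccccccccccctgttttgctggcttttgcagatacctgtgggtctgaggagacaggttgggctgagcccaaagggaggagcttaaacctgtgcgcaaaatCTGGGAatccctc
F11, chr8:45262032-45262281, minus strand: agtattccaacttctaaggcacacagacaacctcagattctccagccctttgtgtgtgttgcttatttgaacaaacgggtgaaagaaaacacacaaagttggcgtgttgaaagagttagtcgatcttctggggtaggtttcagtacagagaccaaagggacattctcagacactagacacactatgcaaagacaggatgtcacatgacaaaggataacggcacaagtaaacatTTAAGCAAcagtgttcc
The letters searched on both strands, chosen after the sequences were seen, were CTGGGA (the core of a type of interleukin-6 response element), ATTAAC (a half-site of the kind HNF1 binds), TTNNGCAA (C/EBP-like) and CAAAGNNCA (HNF4-like), where N is any base. No 2 matches overlap in these windows. CTGGGA occurs in all 3 fibrinogen windows, in 14 of the 30 member genes with an entry in the promoter table and in 26.8% of all 27025 windows in it. ATTAAC is in the Fga and Fgb windows, in 8 of the 30 and in 6.52% of all windows. TTNNGCAA is in the Fga, Fgb and F11 windows, in 9 of the 30 and in 9.55% of all. CAAAGNNCA is in the Fga window alone of these 4, in 3 of the 30 and in 5.47% of all. A match describes the letters and is no evidence that a factor binds there.

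The alpha chain gene Fga stood at 7447, 12942, 28807 and 11592 CPM in the lean livers, 2876, 5610.1, 1892 and 3389 in the HFD controls and 7313, 4746, 5814 and 4429 after NM-FGF19. Every HFD control liver was below every lean liver, and lean 3 was by far the highest of the 12. Fga was 4.42-fold lower in HFD control than in lean (log2 fold change -2.14, SE 0.42, edgeR adjusted p = 0.0114). The beta chain gene Fgb stood at 6523, 11426, 24852 and 10649 CPM in the lean livers, 3004, 4759, 1827 and 3412 in the HFD controls and 6433, 4532, 5731 and 4483 after NM-FGF19, and was 4.11-fold lower in HFD control (log2 fold change -2.04, SE 0.38, edgeR adjusted p = 0.0103). For the gamma chain gene Fgg the values were 4098, 7558, 16622 and 7390.2 CPM in the lean livers, 1952, 3259, 1228 and 2156 in the HFD controls and 4294, 2741, 3704 and 2789 after NM-FGF19. The same order of mice holds in all 3 genes within the lean group, with replicate 3 highest and replicate 1 lowest, and Fgg was 4.15-fold lower in HFD control (log2 fold change -2.05, SE 0.40, edgeR adjusted p = 0.0114). Leaving out both lean 3 and HFD control 3 made the differences smaller by more than 1.5 times as folds, to log2 fold changes of -1.40 for Fga, -1.33 for Fgb and -1.35 for Fgg, with edgeR adjusted p of 0.0309, 0.0229 and 0.0309.

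The chains kept nearly fixed proportions while their levels ranged widely. The ratio of Fga to Fgg CPM, not corrected for length, lay between 1.47 and 1.82 in the 12 livers, and that of Fgb to Fgg between 1.44 and 1.65. Together the chains took 1.74, 2.89, 5.47 and 2.73% of all counts in the lean livers, 0.919, 1.44, 0.570 and 0.947% in HFD control and 1.88, 1.16, 1.52 and 1.22% in NM-FGF19. After NM-FGF19 the 3 genes lay 1.57 to 1.63 times the HFD control level on fitted values, none past the threshold, and the groups overlapped: Fga 0.70 (SE 0.40, edgeR adjusted p = 0.678), Fgb 0.70 (SE 0.37, edgeR adjusted p = 0.628) and Fgg 0.65 (SE 0.38, edgeR adjusted p = 0.689), as log2 fold changes. Against lean, the log2 fold changes were -1.45, -1.34 and -1.40, with edgeR adjusted p of 0.0936, 0.0935 and 0.0926. Here DESeq2 made the call that edgeR did not, for each of the 3 genes.

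**Figure D2:**
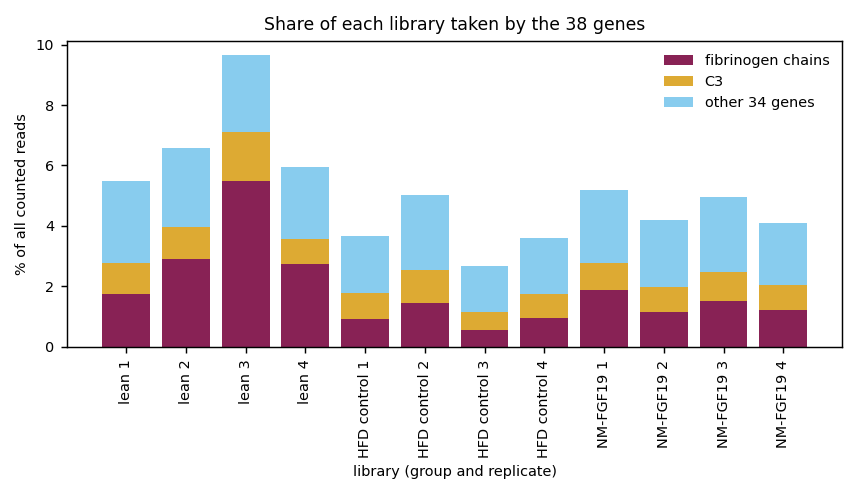
Share of all counted reads (y axis, %) taken in each liver (x axis) by the 3 fibrinogen genes, by C3 and by the other 34 genes, stacked. All 38 together range from 2.68% to 5.01% in HFD control and from 5.48% to 9.65% in lean, where the fibrinogen part of lean replicate 3 makes the tallest bar.

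All 38 genes together took 6.91 ± 1.87% of the counts in lean, 3.74 ± 0.961% in HFD control and 4.62 ± 0.541% in NM-FGF19. Every lean value was above every HFD control value, while the NM-FGF19 values overlapped HFD control. Per kilobase of transcript, which allows genes to be compared with each other, the leading lean levels were Fga at 5874 ± 3622 CPM per kb, Fgg at 5261 ± 3173, Fgb at 3507 ± 2088 and C3 at 2556 ± 1027. The next in that order were Kng1 at 1748 ± 302, Plg at 1045 ± 199 and F2 at 1002 ± 114, and the last was Cfb at 12.4 ± 4.77. In HFD control C3 came first, at 1478 ± 436 CPM per kb, ahead of Fga at 1330.4 ± 608, a gap within the spread of the mice. The first 4 places were taken by the same 4 genes in each group. Lengths are those of the principal transcript in GENCODE M21, so these levels carry any mismatch with the annotation used for counting.

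The vitamin K-dependent proteins need gamma-carboxylation in the liver to bind membranes. Of the 6 genes, 2 (F7 and F10) fell in HFD control and 4 did not pass the test. F10, the protease that cleaves prothrombin, stood at 526, 575, 792 and 475 CPM in the lean livers, 328, 437, 280.1 and 373 in the HFD controls and 433, 453, 443 and 466 after NM-FGF19. All HFD control livers lay below all lean livers, and F10 was 1.67-fold lower (log2 fold change -0.74, SE 0.18, edgeR adjusted p = 0.0244). The starter protease F7 was 1.75-fold lower, at 82.0 ± 26.7 CPM against 144 ± 12.2 (log2 fold change -0.81, SE 0.21, edgeR adjusted p = 0.0330), with 46.1 CPM in HFD control 3. Both calls depended on single libraries: F7 was lost when lean 1, 2, 3 or 4 or HFD control 1 was left out, and F10 when lean 2, lean 3, HFD control 1 or HFD control 3 was left out. F2, prothrombin itself, stood at 2010.05, 1939, 2281 and 1734 CPM in the lean livers, 1265, 1663, 1305 and 1552 in the HFD controls and 1642, 1879, 1744 and 1605 after NM-FGF19. Its HFD control and lean values did not overlap, but the difference was small and did not pass (log2 fold change -0.46, SE 0.15, edgeR adjusted p = 0.0731). For F9 the log2 fold change was -0.36 (SE 0.15, edgeR adjusted p = 0.161), for the anticoagulant protease gene Proc -0.21 (SE 0.14, edgeR adjusted p = 0.400) and for its cofactor gene Pros1 -0.13 (SE 0.16, edgeR adjusted p = 0.674). None of the 6 passed in NM-FGF19 against HFD control, where the log2 fold changes ran from -0.13 (Pros1) to 0.38 (F7), or in NM-FGF19 against lean, where they ran from -0.43 (F7) to -0.059 (Proc).

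Contact system genes held the 1 gene of the 38 that passed in NM-FGF19 against HFD control. F11 encodes factor XI, a protease of the intrinsic pathway, and stood at 107, 135, 101 and 111 CPM in the lean livers, 59.7, 61.1, 28.2 and 48.6 in the HFD controls and 217, 222, 172 and 137 after NM-FGF19. The 3 groups did not overlap in any pair: HFD control was lowest, lean in between and NM-FGF19 highest. F11 was 2.30-fold lower in HFD control than in lean (log2 fold change -1.20, SE 0.23, edgeR adjusted p = 0.0107) and 3.78-fold higher in NM-FGF19 than in HFD control (log2 fold change 1.92, SE 0.23, edgeR adjusted p = 0.00699). The second difference was called in all 22 alternatives, with log2 fold changes from 1.72 to 2.04 and edgeR or other adjusted p up to 0.0361. Against lean, F11 in NM-FGF19 gave a log2 fold change of 0.72 (SE 0.23, edgeR adjusted p = 0.125), which passed the threshold with DESeq2 and without HFD control 3 only. Klkb1, the prekallikrein gene, is the coding gene next to F11, and its values were 233, 188, 92.9 and 202 CPM in the lean livers, 155, 168, 119 and 180.3 in the HFD controls and 199, 242, 219.9 and 163 after NM-FGF19. The groups overlapped in every pair, with log2 fold changes of -0.20 (SE 0.24, edgeR adjusted p = 0.654) in HFD control against lean and 0.41 (SE 0.24, edgeR adjusted p = 0.692) in NM-FGF19 against HFD control.

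Kng1, the kininogen gene, stood at 2868, 3174, 3976 and 2754 CPM in the lean livers, 1332, 1531, 1265 and 1439 in the HFD controls and 1881, 2294, 2156 and 2166 after NM-FGF19. Here NM-FGF19 lay between the other 2 groups, with no overlap in any pair. Kng1 was 2.29-fold lower in HFD control than in lean (log2 fold change -1.20, SE 0.16, edgeR adjusted p = 0.00275), the lowest adjusted p of the 38 in that comparison. The difference of NM-FGF19 from HFD control was 0.61 (SE 0.16, edgeR adjusted p = 0.150) and from lean -0.59 (SE 0.16, edgeR adjusted p = 0.0824), both short of the threshold in edgeR and past it with DESeq2. Kng2, a close copy of Kng1 that can share reads with it, fell in HFD control as well, from 374 ± 93.4 to 211 ± 21.2 CPM (log2 fold change -0.82, SE 0.17, edgeR adjusted p = 0.0155), a call lost without HFD control 1. F12, the factor that starts contact activation, did not pass in HFD control against lean (log2 fold change -0.34, SE 0.14, edgeR adjusted p = 0.148), and neither did Hrg, a heparin-binding plasma glycoprotein gene, whose 4 HFD control livers were all below the lean ones (log2 fold change -0.64, SE 0.19, edgeR adjusted p = 0.0558).

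**Figure D3:**
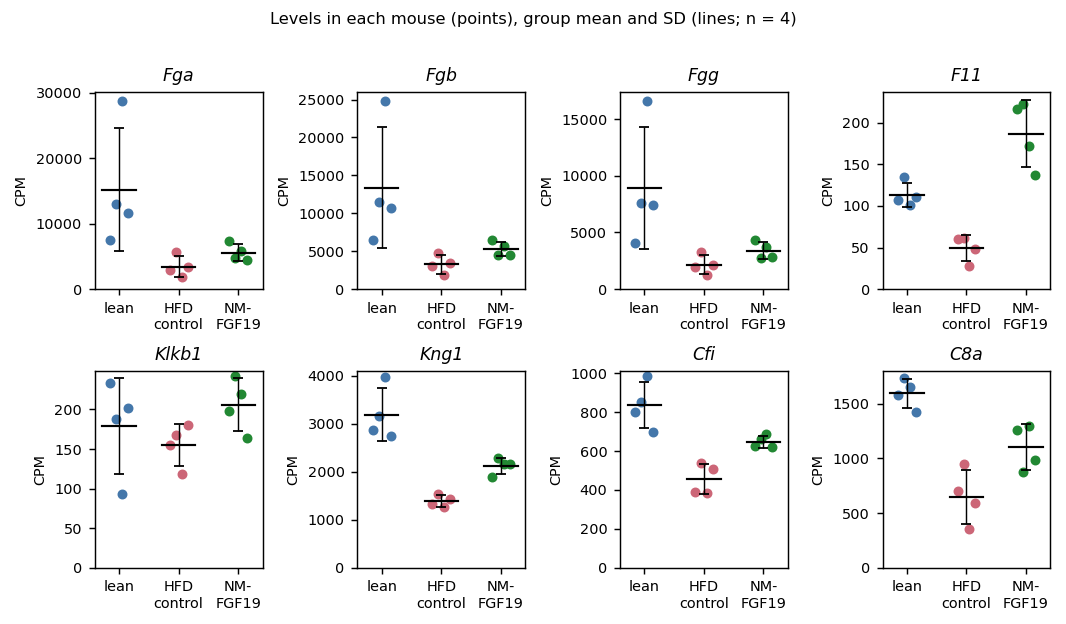
CPM (y axis, linear from 0) of 8 genes in each mouse (points) of the 3 groups (x axis), with the group mean and SD as lines, n = 4. F11 is lowest in HFD control and highest in NM-FGF19 with no overlap between groups, its neighbour Klkb1 overlaps in every pair, and the fibrinogen panels show the high lean 3 value.

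Of the cofactor and fibrin cross-linking genes, neither passed in any comparison. F5, the cofactor of factor X, stood at 692, 553, 659 and 459 CPM in the lean livers, 519.7, 906, 388 and 587 in the HFD controls and 838, 802, 829.9 and 537 after NM-FGF19. HFD control 2 was the highest of all 12 and HFD control 3 the lowest, so the HFD control values span those of the lean livers (log2 fold change 0.023, SE 0.24, edgeR adjusted p = 0.968), and F5 was the gene with a positive sign in that comparison, a sign that turned with limma voom (-0.023). F13b, the carrier subunit of the fibrin-stabilising transglutaminase, stood at 191, 182, 131 and 146 CPM in the lean livers, 142, 197, 126 and 172 in the HFD controls and 172, 199, 194 and 154 after NM-FGF19, with the groups overlapping and a log2 fold change near 0 in HFD control against lean (log2 fold change -0.032, SE 0.17, edgeR adjusted p = 0.931). In NM-FGF19 against HFD control the log2 fold changes were 0.32 (SE 0.24, edgeR adjusted p = 0.778) for F5 and 0.18 (SE 0.17, edgeR adjusted p = 0.837) for F13b.

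Among plasminogen and the inhibitors of thrombin and plasmin, 1 of 4 genes fell in HFD control. Serpinf2 encodes alpha2-antiplasmin and stood at 1129, 1278, 1382 and 1259 CPM in the lean livers, 605, 929, 432 and 737 in the HFD controls and 1271, 1557, 1191 and 1015 after NM-FGF19. It was 1.87-fold lower in HFD control than in lean (log2 fold change -0.90, SE 0.22, edgeR adjusted p = 0.0237), with no overlap. Every NM-FGF19 liver was above every HFD control liver (log2 fold change 0.90, SE 0.22, edgeR adjusted p = 0.111), and the NM-FGF19 and lean livers overlapped (log2 fold change -0.0036, SE 0.21, edgeR adjusted p = 0.998). The first call was lost without lean 2, lean 3, lean 4, HFD control 1 or HFD control 3, and the second, short of the threshold, passed without HFD control 2 (edgeR adjusted p = 0.046), with DESeq2 and with no filter on low counts. Serpinc1, antithrombin, stood at 1867, 1832, 2003 and 1721 CPM in the lean livers, 1189, 1600.2, 1163 and 1366 in the HFD controls and 1447, 1502, 1453 and 1441 after NM-FGF19. Its HFD control and NM-FGF19 livers were all below the lean ones, but by less than the test asks: -0.48 (SE 0.14, edgeR adjusted p = 0.0530) and -0.35 (SE 0.14, edgeR adjusted p = 0.234) as log2 fold changes. Serpind1, heparin cofactor II, was at 608 ± 86.5 CPM in lean, 469 ± 101 in HFD control and 739.9 ± 91.5 in NM-FGF19, where all 4 livers were above all HFD control and all lean livers (log2 fold change 0.66, SE 0.18, edgeR adjusted p = 0.185 against HFD control). Plg, plasminogen, did not pass in HFD control against lean (log2 fold change -0.72, SE 0.25, edgeR adjusted p = 0.0951) or in NM-FGF19 against HFD control (log2 fold change 0.55, SE 0.25, edgeR adjusted p = 0.553).

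In complement, 4 of 18 genes fell in HFD control against 8 of 20 in coagulation and fibrinolysis, and the medians of the log2 fold changes were -0.61 and -0.56. Beside these counts and those of the roles stand 3.29% of all genes tested and 5.49% of the genes at or above the level of Cfb. Without HFD control 2, the genes gained were C1ra, C2, C4b, Mbl1, C3, Hc, C8b and C9 of complement and Hrg, Plg and Serpinc1 of coagulation. The difference between the families was not tested. The genes of the initiating pathways did not pass: 0 of 4 for the classical pathway and 0 of 4 for the lectin pathway. C1ra, one of the proteases of the C1 complex, stood at 304, 273, 272 and 275 CPM in the lean livers, 208, 285, 182 and 219 in the HFD controls and 233, 225, 287 and 224 after NM-FGF19, a difference of -0.33 (SE 0.15, edgeR adjusted p = 0.191) between HFD control and lean. C2, the protease shared by the classical and lectin pathways, stood at 63.2, 53.3, 39.4 and 53.9 CPM in the lean livers, 35.2, 47.5, 32.9 and 33.9 in the HFD controls and 39.5, 36.7, 45.3 and 36.0 after NM-FGF19. It overlapped between HFD control and lean through HFD control 2 (log2 fold change -0.49, SE 0.16, edgeR adjusted p = 0.0720), and passed without lean 3, without HFD control 2 and with DESeq2. The other 2 classical genes were C1s1, at -0.21 (SE 0.14, edgeR adjusted p = 0.393), and C4b, at -0.58 (SE 0.24, edgeR adjusted p = 0.151). Both C4b and its near-identical copy C4a, and C1ra and C1s1 with theirs, can share reads, so their counts are uncertain. C4a stood at 131 ± 6.94 CPM in lean and 48.1 ± 34.4 in HFD control, while C1rb and C1s2 stayed below 0.5 CPM in each group mean.

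The lectin pathway reads sugars on microbes through mannose-binding lectins and their proteases. Mbl1, 1 of the 2 lectin genes, stood at 209.7, 273, 266 and 246 CPM in the lean livers, 146, 202, 141 and 150.2 in the HFD controls and 141, 94.0, 190.5 and 150.2 after NM-FGF19. Both high-fat diet groups lay below the lean livers without overlap, and neither difference passed: -0.64 (SE 0.20, edgeR adjusted p = 0.0608) for HFD control and -0.79 (SE 0.20, edgeR adjusted p = 0.0659) for NM-FGF19, as log2 fold changes against lean. The first passed without HFD control 2, without NM-FGF19 2 and with DESeq2, and the second without NM-FGF19 3, with DESeq2 and with no filter on low counts. Masp1, a protease bound to these lectins, stood at 264, 277, 336 and 222 CPM in the lean livers, 223, 226, 184 and 184 in the HFD controls and 313, 303, 267 and 291 after NM-FGF19. All 4 NM-FGF19 livers were above all HFD control livers (log2 fold change 0.52, SE 0.14, edgeR adjusted p = 0.191), which DESeq2 alone called. For Mbl2 the log2 fold change in HFD control against lean was -0.49 (SE 0.19, edgeR adjusted p = 0.124) and for Masp2 -0.35 (SE 0.16, edgeR adjusted p = 0.201).

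C3, where the pathways meet, stood at 10849.7, 11673, 20876 and 9115 CPM in the lean livers, 7420.2, 10398, 4918 and 7628 in the HFD controls and 8546, 8348, 9581 and 7830.2 after NM-FGF19. The highest value was that of lean 3, as for fibrinogen, and HFD control 2 overlapped the lean livers (log2 fold change -0.79, SE 0.27, edgeR adjusted p = 0.0912). C3 passed without HFD control 2 and with DESeq2. Cfb, the alternative pathway protease and the lowest of the 38 genes, stood at 26.2, 35.1, 52.0 and 22.8 CPM in the lean livers, 21.4, 39.4, 17.8 and 24.3 in the HFD controls and 36.1, 28.0, 40.6 and 24.7 after NM-FGF19, with overlap in every pair (log2 fold change -0.40, SE 0.29, edgeR adjusted p = 0.430). Neither gene passed in NM-FGF19 against HFD control, at 0.18 (SE 0.27, edgeR adjusted p = 0.926) and 0.33 (SE 0.29, edgeR adjusted p = 0.820).

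Both soluble complement inhibitors on the list fell in HFD control. Cfi, the protease that destroys C3b and C4b, stood at 800.4, 855, 984 and 700.5 CPM in the lean livers, 392, 539, 387 and 505 in the HFD controls and 627, 660.01, 688 and 622 after NM-FGF19. The groups did not overlap in any pair, NM-FGF19 again lying between, and Cfi was 1.83-fold lower in HFD control than in lean (log2 fold change -0.87, SE 0.16, edgeR adjusted p = 0.00848). NM-FGF19 gave 0.51 (SE 0.15, edgeR adjusted p = 0.257) against HFD control and -0.36 (SE 0.15, edgeR adjusted p = 0.256) against lean, as log2 fold changes. C4bp, whose protein serves Cfi as a cofactor, was 1.64-fold lower in HFD control, at 585 ± 50.2 CPM against 963 ± 245 (log2 fold change -0.72, SE 0.17, edgeR adjusted p = 0.0232), a call lost without lean 2, HFD control 1, HFD control 3 or HFD control 4.

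The membrane attack complex genes had the lowest role median after fibrinogen, -1.21, and 2 of the 6, C6 and C8a, fell. C8a, the alpha chain of C8, stood at 1578, 1735, 1652 and 1421 CPM in the lean livers, 701, 948, 351 and 591 in the HFD controls and 1264, 877, 1296 and 981 after NM-FGF19. HFD control lay below lean without overlap, at 2.46-fold lower (log2 fold change -1.30, SE 0.25, edgeR adjusted p = 0.0114), and NM-FGF19 lay below lean and overlapped HFD control (log2 fold change -0.53, SE 0.25, edgeR adjusted p = 0.301 against lean and log2 fold change 0.77, SE 0.25, edgeR adjusted p = 0.307 against HFD control). C6 was 2.50-fold lower, at 244 ± 128 CPM against 610.4 ± 89.1 (log2 fold change -1.32, SE 0.32, edgeR adjusted p = 0.0239). The call on C6 was lost without lean 2, 3 or 4 or HFD control 1, 3 or 4. C8b, next to C8a on the chromosome, had the larger fitted change and the wider spread, from 42.1 to 422 CPM in HFD control against 519.6 to 673 in lean (log2 fold change -1.63, SE 0.51, edgeR adjusted p = 0.0716). Hc, the gene of C5, gave -0.98 (SE 0.33, edgeR adjusted p = 0.0861) and C9, the pore subunit, -1.12 (SE 0.37, edgeR adjusted p = 0.0807). C8g, the third C8 chain, made as a separate lipocalin, had the smallest difference of the 6 (log2 fold change -0.36, SE 0.16, edgeR adjusted p = 0.196). Within HFD control the coefficient of variation was 82.8% for C8b, 55.9% for Hc, 52.5% for C6 and 49.5% for C9, against 12.5%, 14.9%, 14.6% and 5.35% in lean. Without HFD control 2, C8b, Hc and C9 passed as well, and C9 also without NM-FGF19 4. The log2 fold change of C8b without HFD control 2 was -2.32 against lean (edgeR adjusted p = 0.011) and 1.28 in NM-FGF19 against HFD control (edgeR adjusted p = 0.223).

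**Figure D4:**
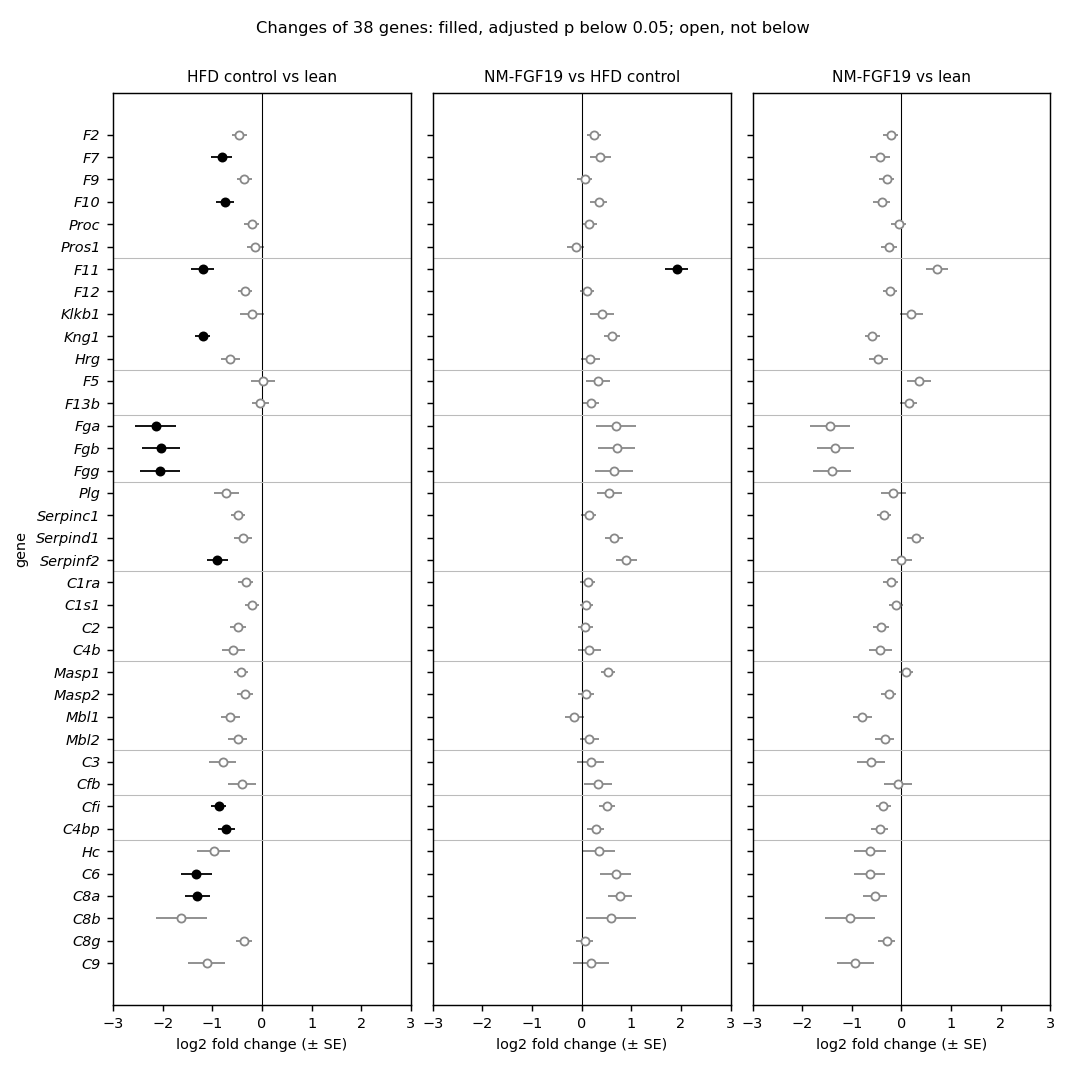
Log2 fold change (x axis) with its SE for each of the 38 genes (y axis, grouped by role) in the 3 comparisons; filled points have an edgeR adjusted p below 0.05. The 12 filled points of HFD control against lean all lie left of 0, F11 is the single filled point of NM-FGF19 against HFD control, and the panel of NM-FGF19 against lean has none.

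The second comparison sets the NM-FGF19 livers beside those of HFD control and asks what the FGF19 mRNA does on the high-fat diet. It shares the HFD control mice with the first, so the 2 sets of values are not independent and a low HFD control value enters both. Of the 38 genes, 1 was higher (F11, 2.63% of the genes against 0.282% of all genes tested) and 0 were lower (0.151% of all genes). Of the genes at or above the level of Cfb, 0.559% were higher and 0.303% lower. At an unadjusted p below 0.05, 9 were higher and 0 lower, a count without a share over all genes to set beside it. DESeq2 called 6 of the 38 higher and 0 lower, and over all genes tested 171 higher and 114 lower. In 6 genes (15.8%) all NM-FGF19 livers were above all HFD control livers: F11, Kng1, Serpind1, Serpinf2, Masp1 and Cfi. The same held for 3.23% of all genes tested and for 5.14% of the genes at or above the level of Cfb. The reverse order held for 0 of 38, against 2.38% of all genes and 2.89% of that set. The sign was positive in 36 of 38, against 49.9% of all genes, with Pros1 and Mbl1 as the exceptions, and the median log2 fold change was 0.30 against a median of -0.00046 over all genes. With totals alone in place of TMM the calls over all genes moved from 23 lower and 43 higher to 30 lower and 26 higher, and the median over all genes to -0.13. In data simulated for this comparison, 56% of genes changed by 2-fold and 2% of those changed by 1.5-fold were called. The changed genes were drawn at random from the genes tested that had a mean of at least 1 CPM. They were not drawn from the 38 in particular, whose levels and spread differ. These shares are therefore not detection rates for the 38 genes. Summed hepatocyte markers were higher in each NM-FGF19 liver than in each HFD control liver, and without albumin (Alb) the ranges overlapped, at 43687 to 51858 and 34349.9 to 49544 CPM. None of the 11 markers was called, and their part in these results was not tested.

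The third comparison, NM-FGF19 against lean, asks how far livers on the high-fat diet with the FGF19 mRNA were from chow-fed ones, and shares mice with both others. Of the 38 genes, 0 were lower and 0 higher by edgeR, where 0.484% of all genes tested were lower and 1.01% higher, and 0.582% and 0.605% of the genes at or above the level of Cfb. Unadjusted p-values below 0.05 numbered 13 lower and 1 higher (F11), again without a share over all genes to set beside them. DESeq2 called 5 lower (Kng1, Fga, Fgb, Fgg and Mbl1) and 1 higher (F11), and over all genes tested 368 lower and 601 higher. The groups did not overlap in 14 genes that were lower (36.8%, against 4.84% of all genes and 7.28% of the genes at or above the level of Cfb) and in 2 that were higher, F11 and Serpind1 (5.26% against 5.46% of all genes and 4.07% of that set). The median log2 fold change was -0.34 against -0.012 over all genes, and 32 of 38 genes had a negative sign, against 51.6% of all genes. With totals alone, the calls over all genes moved from 74 lower and 154 higher to 52 lower and 346 higher, and the median of the 38 to -0.16 while that of all genes moved to 0.17.

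Mice within a group differed together. HFD control 2 had the highest value of its group in 34 of the 38 genes and HFD control 3 the lowest in 31. Lean 3 was the highest lean liver in 21 genes and NM-FGF19 4 the lowest of its group in 25. The same counts were not taken over all genes, so whether this holds for the 38 in particular was not tested. The median deviation of the 38 genes from the mean log2 CPM of the lean livers was -0.26 in HFD control 2 and -0.85 in HFD control 3, with -0.70 and -0.60 in HFD control 1 and 4. The NM-FGF19 livers lay between -0.47 and -0.19. The lowest lean liver was at -0.15.

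Other genes of the same pathways, with some further plasma proteins, were counted from lists. The first list held 13 further liver-made genes of coagulation and of plasma proteins outside the clotting cascade, Ahsg, Fetub and Itih4 among the latter. Of these 13, 6 were lower in HFD control than in lean and 0 higher, with a median log2 fold change of -0.82. The 6 were Serpina10, Proz, Fgl1, Kng2, Fetub and Itih4. Of all genes tested, 3.29% were lower and 5.04% higher. Serpina10, the protein Z-dependent protease inhibitor, fell from 538 ± 213 to 159 ± 22.2 CPM (log2 fold change -1.76, SE 0.24, edgeR adjusted p = 0.00285), and it was also the 1 of the 13 that was lower in NM-FGF19 than in lean (log2 fold change -1.40, SE 0.24, edgeR adjusted p = 0.0156). Kng2, given above with Kng1, had the next smallest adjusted p. None of the 13 passed in NM-FGF19 against HFD control. Of 17 further complement genes tested, 3 were lower in HFD control and 1 higher, beside the same shares of all genes, 3.29% and 5.04%. Fcna, a ficolin that feeds the lectin pathway, fell from 60.4 ± 6.07 to 11.6 ± 3.60 CPM (log2 fold change -2.39, SE 0.32, edgeR adjusted p = 0.00285) and was low in NM-FGF19 too, at 14.8 ± 7.47 (log2 fold change -2.03, SE 0.31, edgeR adjusted p = 0.0122 against lean). Ficolin A is also made by macrophages, and 5 of 6 Kupffer cell markers were lower in HFD control than in lean, a shift whose part in the Fcna result was not tested. C1rl, a C1r-like protease, gave -0.51 (SE 0.11, edgeR adjusted p = 0.0165), and Vtn, vitronectin, named after its values were seen, -0.92 (SE 0.20, edgeR adjusted p = 0.0184), a call lost without HFD control 1 or HFD control 3. Both were lost without lean 3 and HFD control 3 together.

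Cfd, the factor D that activates factor B, was counted almost only in HFD control. Its counts were 0, 4, 0 and 0 in lean, 798, 26, 404 and 264 in HFD control and 0, 1, 0 and 8 in NM-FGF19. Among the HFD controls replicate 2 was far below the others. HFD control held 1492 counts in all, against 4 in lean, a CPM ratio of 239.8 with a 95% interval from 93.4 to 881, and against 9 in NM-FGF19, a ratio of 132 with an interval from 69.4 to 289, both covering counting error only. The edgeR adjusted p was 0.00848 for HFD control against lean, kept in 19 of 21 alternatives (not with limma voom or without both lean 3 and HFD control 3), and 0.0294 for NM-FGF19 against HFD control, kept in 9 of 21 and lost without any 1 of lean 2, HFD control 1, 3 or 4 or NM-FGF19 1, 2 or 3. Cfd is best known as an adipocyte product. Of the 5 listed adipocyte markers, Cfd included, only Cfd itself passed the filter on low counts. Lep had no count, Plin1 none outside NM-FGF19, and Adipoq a mean of 0.0404 CPM in lean and 0.0145 in HFD control. The cells that the Cfd counts came from were not tested.

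Of the 14 coagulation and fibrinolysis genes of vessel wall, platelets and leukocytes that were tested, 2 were higher in HFD control than in lean and 0 lower, with a median log2 fold change of 0.23. Among all genes tested, 5.04% were higher and 3.29% lower. Plau, the urokinase gene, was at 2.17 ± 0.850 CPM in lean and 8.13 ± 4.13 in HFD control (log2 fold change 1.90, SE 0.38, edgeR adjusted p = 0.0123), and Tfpi, the inhibitor of the tissue factor pathway, at 8.79 ± 1.23 and 13.9 ± 2.14 (log2 fold change 0.66, SE 0.16, edgeR adjusted p = 0.0232). The call on Tfpi was lost without HFD control 3 or HFD control 4, and both were lost without lean 3 and HFD control 3 together. Of 11 complement receptors and membrane regulators, 1 was lower and 1 higher. Vsig4, a C3b receptor of resident macrophages, fell from 57.5 ± 6.50 to 8.58 ± 6.31 CPM (log2 fold change -2.74, SE 0.55, edgeR adjusted p = 0.0149), and Itgax, the alpha chain of complement receptor CR4, rose from 1.55 ± 0.249 to 14.8 ± 6.80 (log2 fold change 3.26, SE 0.36, edgeR adjusted p = 0.00141), with 9.64 ± 3.98 in NM-FGF19 (log2 fold change 2.64, SE 0.35, edgeR adjusted p = 0.00588 against lean). Both genes are also on the marker lists: 5 of 6 Kupffer cell markers, Vsig4 included, were lower and 6 of 8 markers of monocyte-derived macrophages, Itgax included, were higher in HFD control than in lean, and their part in these results was not tested. The Kupffer cell markers summed to 423 to 578 CPM in lean, 125 to 461 in HFD control and 91.5 to 376 in NM-FGF19, and those of monocyte-derived macrophages to 67.5 to 305 CPM in lean, 107 to 331 in HFD control and 77.4 to 211 in NM-FGF19. Over the 6 pathway lists, 12 genes were lower and 4 higher in HFD control against lean, 1 lower and 0 higher in NM-FGF19 against HFD control, and 2 lower and 1 higher in NM-FGF19 against lean. Over all genes tested, the shares lower and higher were 3.29% and 5.04%, 0.151% and 0.282%, and 0.484% and 1.01% in those comparisons. The lists held 13, 17, 14, 11, 7 and 21 tested genes. The 4 higher in HFD control are thus close to the share over all genes.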

How the data were processed

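RNA-seq counts per gene from 12 mouse livers were used. Per the labels' protocols, 100 ng of liver RNA went into each library of a stranded Illumina mRNA kit, read as pairs of 101 nt on a NextSeq2000. The deposited values are raw counts, which the authors made on build mm39 using Trimmomatic, featureCounts and STAR, per the submitters' processing notes. Their versions, the gene annotation and the strand setting were not given in the sources at hand, and antisense partners may therefore share counts. Reads of near-identical copies may be split or dropped. Symbols matched 52083 of 55359 gene IDs, and all 12 columns were matched to samples by name.

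All 15274 genes kept by filterByExpr (minimum count 10) entered edgeR 4.0.16 (R 4.3.3, limma 3.58.1) with TMM, one robust quasi-likelihood fit over the 12 libraries with group as the only term, 2-sided F tests, Benjamini-Hochberg adjustment over all genes within a comparison and a threshold of 0.05. The SE is the one implied by the F statistic. Log2 CPM used a prior count of 2. The 38 genes, the lists of other pathway genes and cell type markers, the tests and the alternatives were chosen with earlier results of these data known. Values for every mouse are given for the 3 fibrinogen chains, F2, Serpinc1, C3 and, in each role, the gene with the smallest adjusted p in HFD control against lean and in NM-FGF19 against HFD control, 19 genes in all, with Klkb1 added as the neighbour of F11; from each other list, the 2 called genes with the smallest adjusted p in each direction and comparison are named. The alternatives were DESeq2 1.42.0, limma voom, RLE factors, library totals alone, no filter, at least 1 CPM in 4 samples, no robust option, only the 2 groups compared, a replicate block, each library left out, and lean 3 and HFD control 3 left out together. The model was checked on simulated counts for the NM-FGF19 and HFD control mice (15274 genes, 50 changed per fold size): 2, 56, 86 and 94% were called at 1.5-, 2-, 4- and 8-fold, with 3 false among 122 calls. Replicates differed with a chi-square of 37.6 to 314 per degree of freedom over 18 pairs, so no 2 libraries were alike within counting error. The labels give separate mice per sample, and p-values measure the spread between these mice. Same-numbered mice did not deviate together (correlations -0.363 to 0.071 over 12 pairs), so the numbers were not taken as pairs. For ratios of count sums, exact 95% intervals are given. Baseline mice were not analysed here, and no protein sequences were used.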

Additional observations from a re-analysis of the deposited data

Results flagged for a closer look

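In 8 of 114 tests (38 genes in 3 groups of 4), 1 liver lay so far from the others of its group that its gap to the nearest, as a share of the group's range, exceeded Dixon's 95% critical value for 4 samples. Chance flags about 1 in 20 such groups. Of the 8, 4 were HFD control 2 standing above its group: C1s1 with 496 CPM in HFD control 2 against 348 to 372 in the other 3 livers, C2 with 47.5 CPM in HFD control 2 against 32.9 to 35.2 in the other 3 livers, C4b with 2396 CPM in HFD control 2 against 1254 to 1375 in the other 3 livers and Mbl1 with 202 CPM in HFD control 2 against 141 to 150.2 in the other 3 livers. C1s1, C2 and C4b are enzymes or substrates of the classical pathway, and Mbl1 is a lectin. C1ra was high in 1 liver of each of 2 other groups, with 304 CPM in lean 1 against 272 to 275 in the other 3 livers and 287 CPM in NM-FGF19 3 against 224 to 233 in the other 3 livers. Serpind1 was low in lean 3, with 479 CPM in lean 3 against 644 to 659.5 in the other 3 livers, in the library where fibrinogen and C3 were highest. F5 was low in NM-FGF19 4, with 537 CPM in NM-FGF19 4 against 802 to 838 in the other 3 livers, the liver that was the lowest of its group in 25 of the 38 genes.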

How the results depend on the processing

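Of the 12 genes called lower in HFD control against lean, 7 kept the call in all 22 alternatives, and F11 kept its call in NM-FGF19 against HFD control in all 22. The count of genes lower in HFD control was 23 with DESeq2, 7 without both lean 3 and HFD control 3, and 7 to 23 with 1 library left out. Over all genes tested, the lower calls were 921, 157 and 196 to 602 in those settings. In none of the 22 was any of the 38 higher in HFD control. In NM-FGF19 against HFD control 6 were higher with DESeq2, 2 with no filter and 1 to 2 with 1 library left out. Over all genes tested, 171, 52 and 9 to 62 were higher in those settings. In NM-FGF19 against lean 5 were lower with DESeq2, 1 with no filter, 1 with only the 2 groups compared and 0 to 1 with 1 library left out, while 1 was higher with DESeq2 and 0 to 1 when 1 mouse was dropped. Over all genes tested, the lower calls in those settings were 368, 75, 43 and 24 to 92, and the higher calls 601 and 43 to 181. By totals without TMM the median of the 38 moved to -0.29 in HFD control against lean and to -0.16 in NM-FGF19 against lean. With 1 library left out the medians ranged from -0.76 to -0.52, from 0.18 to 0.45 and from -0.38 to -0.25 in the 3 comparisons. With the replicate number as a block, although the numbers do not pair the mice and 0 of 12 libraries correlated best with their own number, 8 of the 38 were lower in HFD control, F11 kept both calls, and the other pathway genes lower in HFD control went from 12 to 5, those lower in NM-FGF19 from 1 to 0 against HFD control and from 2 to 1 against lean.

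Of the other pathway genes, 12 lower and 4 higher in HFD control against lean became 23 and 7 with DESeq2, 4 and 1 without both lean 3 and HFD control 3, and 7 to 18 lower with 1 library left out, with 12 higher by library totals alone. In NM-FGF19 against HFD control the 1 lower became 0 with limma voom, no filter, at least 1 CPM in 4 samples, only the 2 groups compared or without both libraries, and 0 to 1 with 1 library left out, and 0 higher became 4 with DESeq2, 1 with at least 1 CPM in 4 samples and 0 to 1 with 1 library left out. In NM-FGF19 against lean 2 lower and 1 higher became 7 and 4 with DESeq2, 4 lower with only the 2 groups compared and 4 higher by library totals alone. Signs turned in 52 of 2508 values, 0 of them past the threshold. By library totals alone they turned in HFD control against lean for Proc (0.084), Pros1 (0.19), Klkb1 (0.070), F13b (0.26) and C1s1 (0.10), in NM-FGF19 against HFD control for F9 (-0.062), F12 (-0.015), C1ra (-0.0062), C1s1 (-0.031), C2 (-0.052), Masp2 (-0.039) and C8g (-0.077), and in NM-FGF19 against lean for Proc (0.11), Plg (0.025), Serpinf2 (0.18), C1s1 (0.073) and Cfb (0.14). Without both libraries they turned for Pros1 (0.086), F13b (0.00071) and Cfb (0.044) in the first, F9 (-0.036), Masp2 (-0.043) and C9 (-0.0056) in the second and Serpinf2 (0.060) and Cfb (0.22) in the third comparison. F5 turned with limma voom (-0.023), and Serpinf2 in NM-FGF19 against lean with no filter (0.013) and with at least 1 CPM (0.0085). With 1 library left out the log2 fold changes that turned ranged, in HFD control against lean, from -0.23 to 0.052 for Pros1, -0.25 to 0.18 for F5 and -0.15 to 0.068 for F13b; in NM-FGF19 against HFD control from -0.030 to 0.15 for F9, -0.0059 to 0.21 for C2, -0.036 to 0.24 for Masp2, -0.045 to 0.25 for Mbl2, -0.027 to 0.14 for C8g and -0.20 to 0.59 for C9; and in NM-FGF19 against lean from -0.11 to 0.017 for Proc, -0.11 to 0.087 for Serpinf2 and -0.22 to 0.22 for Cfb. The cause of these differences was not tested. In data simulated for NM-FGF19 against HFD control, 2% of changes of 1.5-fold were called with 4 mice a group.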

Other observations

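Clotting factors are carboxylated and folded before secretion, and hepatocyte transcription factors act on their genes. Of 7 genes of the vitamin K cycle and of secretion, none passed in any comparison. Ggcx, the gamma-glutamyl carboxylase, was at 81.9 ± 8.24 CPM in lean, 64.3 ± 15.4 in HFD control and 96.2 ± 18.9 in NM-FGF19 (log2 fold change -0.35, SE 0.18, edgeR adjusted p = 0.267 for HFD control against lean), and Vkorc1, the vitamin K epoxide reductase, at 38.9 ± 6.66, 36.7 ± 3.07 and 36.0 ± 2.85. Of 21 liver transcription factors and acute phase signalling genes tested, 2 were lower in HFD control than in lean and none passed in the other comparisons. The share lower in HFD control over all genes tested was 3.29%. Stat3, the mediator of interleukin-6 signals, fell from 304 ± 131 to 128 ± 35.4 CPM (log2 fold change -1.25, SE 0.29, edgeR adjusted p = 0.0214), with 490.2 CPM in lean 3. The call on Stat3 was lost without HFD control 1 or HFD control 3, without lean 3 and HFD control 3 together, and with the replicate block. Foxa3, a forkhead factor of hepatocytes, gave -0.97 (SE 0.26, edgeR adjusted p = 0.0396), a call kept in 11 of 22 alternatives and lost without any 1 of lean 2, 3 or 4, HFD control 1, 3 or 4 or NM-FGF19 2. Hnf4a gave -0.43 (SE 0.22, edgeR adjusted p = 0.252) and Cebpa -0.32 (SE 0.13, edgeR adjusted p = 0.146), as log2 fold changes.

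Several of the 38 genes are neighbours among coding genes in the RefSeq annotation of GRCm38.p6, and the values of adjoining genes can be set side by side. F7 and F10, which adjoin, had log2 fold changes of -0.81 and -0.74 in HFD control against lean, and C8b and C8a -1.63 and -1.30. F11 and Klkb1, which adjoin as well, had -1.20 and -0.20 in that comparison and 1.92 and 0.41 in NM-FGF19 against HFD control. The difference between neighbours was not tested.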
